A study of Homo sapiens with 4 samples.

Results

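The 10 genes described here encode cohesin and its loaders and regulators: SMC1A, SMC3, RAD21, STAG1, STAG2, NIPBL, WAPL, PDS5A, PDS5B and ESCO2. They were taken by gene symbol from the deposited count table and are 10 of its 58735 genes. Their levels were compared across 4 libraries of HEK293T cells, an immortal line from human embryonic kidney, that carried a CRISPR knockout of PBRM1. A plasmid encoding a GFP fusion of PBRM1 was introduced for 48 h, with the protein carrying P1048R, T1202K or C1233W or left unaltered (WT). All 4 groups thus shared the knockout, the GFP tag and the transfection, and the level of the introduced protein was not measured in these data. The labels do not say whether the knockout cells were 1 clone, and cells without a plasmid were not analysed here.

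PBRM1 is a bromodomain and BAH domain subunit of the PBAF chromatin remodelling complex. Cohesin is a ring that holds sister chromatids together from S phase until mitosis and folds interphase chromatin into loops. SMC1A and SMC3 form the arms of the ring, RAD21 closes it, and STAG1 or STAG2 binds RAD21. NIPBL drives loading and loop extrusion, WAPL with PDS5A or PDS5B opens the ring and releases it, and ESCO2 acetylates SMC3 during replication so that cohesion is stable.

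Each construct had 1 library, so no difference below has a replicate check and no p-value is given. The libraries held 10246250 to 11205322 counted reads, and PBRM1 itself took 0.938% of the reads in P1048R, 1.57% in T1202K, 6.04% in C1233W and 2.08% in WT. With 1 library per construct, the amino acid change and the amount of PBRM1 RNA cannot be told apart. Levels are CPM, read counts divided by a library size that was adjusted with TMM factors (trimmed mean of M values), and brackets after a level or ratio give its 95% interval from counting error alone. The HEK293 marker list (PAX2, neurofilaments, N-cadherin, vimentin and simple keratins) summed to between 1004 CPM, in P1048R, and 1484 CPM, in WT, with all 7 genes detected in each library. Blood markers summed to 2.68 to 4.71 CPM, with CD3E, MS4A1 and HBB at 0 reads in all 4 libraries. Keratinocyte markers summed to 33.1 to 37.4 CPM, nearly all of it KRT10 (32.9 to 37.3 CPM). KRT1 was at 0 in all 4, and KRT5, KRT14, DSG3 and TP63 had at most 1 read in any library. Fibroblast and endothelial markers summed to 22.8 CPM in P1048R, 30.9 in T1202K, 47.7 in C1233W and 44.7 in WT, with DCN at 0 in all but C1233W. The part of any of these in the results was not tested. In bulk RNA, fewer cells of a kind and less RNA per cell cannot be told apart.

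With TMM scaling, no cohesin gene differed by 1.5-fold or more between any of the libraries. A gene was called when its ratio reached 1.5-fold with a counting interval that excluded 0 on the log2 scale, and 0 of the 60 values (10 genes in 6 comparisons) met this. Of all 16262 genes that reached 1 CPM in any library, 19.7% were called in P1048R against WT, 13.3% in T1202K against WT and 13.7% in C1233W against WT. Between mutants, 3.35% were called in T1202K against P1048R, 11% in C1233W against P1048R and 8.87% in C1233W against T1202K. Among the 4311 genes with at least 50 CPM in every library, all 10 cohesin genes included, the called shares were 10.9%, 5.03% and 6.54% for P1048R, T1202K and C1233W against WT. Between mutants, in the order above, they were 0.093%, 1.53% and 1.30%. At 2-fold, 0 cohesin genes were called in any comparison. Of all genes tested, 7.5%, 5.15% and 5.4% were called at 2-fold for P1048R, T1202K and C1233W against WT. Between mutants the shares were 1.24% for T1202K against P1048R, 4.54% for C1233W against P1048R and 3.54% for C1233W against T1202K. Among genes of at least 50 CPM the 2-fold shares were 0.858%, 0.441% and 0.394% against WT. Between mutants they were 0%, 0.116% and 0.139%, so a count of 0 is close to the 2-fold shares of that class.

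Over the 4 libraries and with TMM scaling, the highest level of a cohesin gene was 1.07 times (WAPL) to 1.46 times (SMC1A) its lowest, with a median of 1.23. Among the genes of at least 50 CPM the median was 1.28, and 80.7% had a range as narrow as SMC1A or narrower. WAPL was narrower than nearly all of them, since 2.34% had a range at or below its own. The order of the ranges depended on the scaling: on total counts STAG1 was widest, at 1.51 times, with SMC3 at 1.34, SMC1A at 1.28 and WAPL at 1.19, and PDS5A was narrowest, at 1.08.

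**Figure D1:**
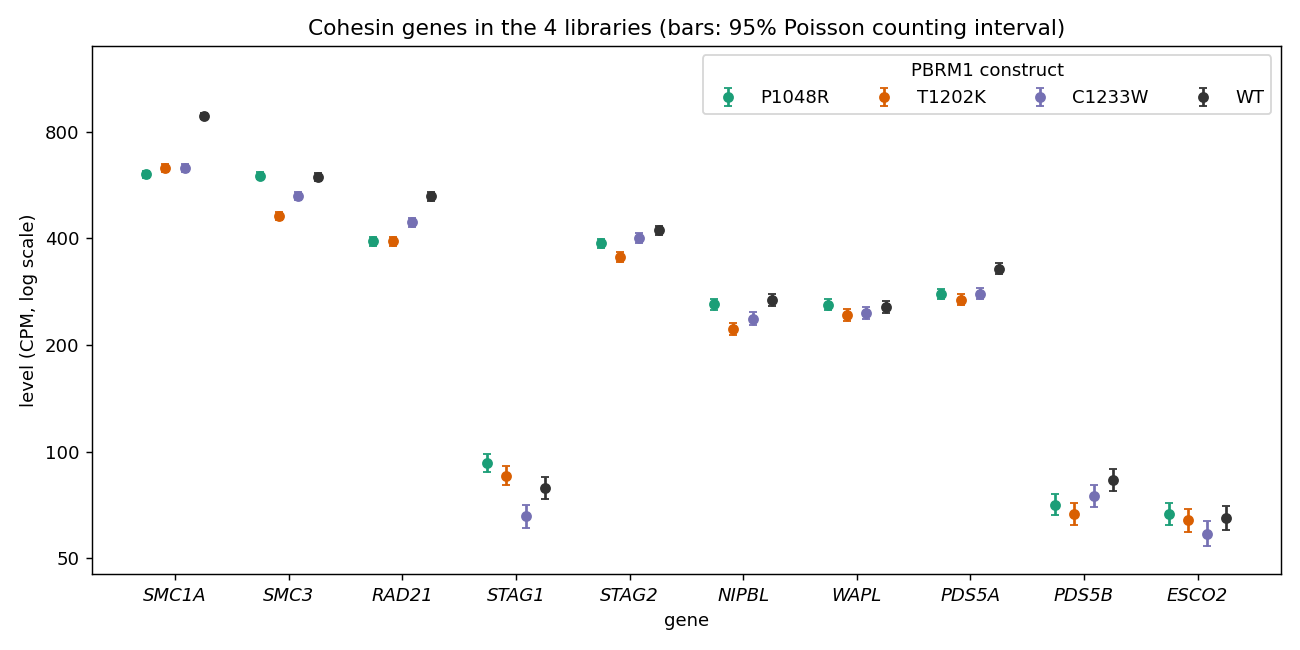
Level of each cohesin gene (CPM, log scale) in the P1048R, T1202K, C1233W and WT libraries, 1 point per library, with bars for the 95% Poisson counting interval. SMC1A, RAD21 and PDS5A sit visibly higher in WT than in the mutants, WAPL and ESCO2 are nearly level, and STAG1 is lowest in C1233W.

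SMC1A, an arm of the ring, was lower in each mutant than in WT. The gene spans 53374149 to 53422728 of chromosome X (minus strand, ENSG00000072501; GRCh38, GENCODE release 29, as for all genes here). Its level was 608 CPM in P1048R (594 to 622), 633 in T1202K (618 to 647), 633 in C1233W (618 to 648) and 887 in WT (868 to 906). WT thus stood above all 3 mutants, whose own levels lay close together. The log2 ratio against WT was −0.55 in P1048R (−0.59 to −0.50), −0.49 in T1202K (−0.53 to −0.44), with −0.49 in C1233W (−0.53 to −0.44). With libraries scaled by total counts, a setting that moves the median of all genes by over 0.1 in each of these comparisons, the ratios were −0.32, −0.31 and −0.36, still lower in each mutant. The 3 comparisons share the WT library, so they are not independent of each other.

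SMC3, the partner of SMC1A, spans 110567691 to 110604636 of chromosome 10 (plus strand, ENSG00000108055). It stood at 602 CPM in P1048R (588 to 616), 463 in T1202K (451 to 476), 528 in C1233W (514 to 542) and 597 in WT (582 to 613). P1048R and WT did not differ beyond counting error (log2 ratio 0.01, −0.04 to 0.06), though on total counts P1048R was higher by 0.23. T1202K was the lowest library, at −0.37 against WT (−0.42 to −0.31) and −0.38 against P1048R (−0.43 to −0.33). C1233W lay between them, at −0.18 against WT (−0.23 to −0.12), a value that shrank to −0.05 on total counts.

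RAD21, the kleisin that closes the ring and is cut by separase at anaphase, spans 116845935 to 116874866 of chromosome 8 (minus strand, ENSG00000164754). It stood at 393 CPM in P1048R (382 to 404), 392 in T1202K (381 to 404), 444 in C1233W (431 to 457) and 526 in WT (511 to 541). P1048R and T1202K were level with each other and lowest. Log2 ratios against WT were −0.42 in P1048R (−0.48 to −0.36), −0.42 in T1202K (−0.48 to −0.36), with −0.24 in C1233W (−0.30 to −0.18). On total counts they were −0.20, −0.25 and −0.11. UTP23, a gene on the opposite strand whose span overlaps that of RAD21, had 726 reads in P1048R, 617 in T1202K, 507 in C1233W and 434 in WT. Whether the exons of both genes overlap was not examined. Without the strand setting of the counting, any shared reads cannot be told apart.

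A ratio of 2 genes inside a library does not depend on how libraries are scaled, though it can depend on their GC content and transcript length. The trend of log2 ratios on both, in C1233W against WT, was 0.06 for SMC1A and −0.07 for SMC3. It is not removed from the ratios in this paragraph. Per kilobase of exon, the SMC1A level was 0.412 of the SMC3 level in P1048R (0.399 to 0.425), 0.557 in T1202K (0.537 to 0.577), 0.489 in C1233W (0.471 to 0.507) and 0.605 in WT (0.585 to 0.626). These intervals do not overlap between any of the libraries. On the log2 scale the ratio differed from that of WT by −0.56 in P1048R (−0.62 to −0.49), −0.12 in T1202K (−0.19 to −0.05), with −0.31 in C1233W (−0.38 to −0.24). RAD21 over SMC3 was lowest in P1048R, at 0.451 per kilobase (0.435 to 0.468), against 0.585 in T1202K, 0.581 in C1233W and 0.607 in WT. T1202K and C1233W differed from WT in this ratio by −0.06 each, with intervals of −0.14 to 0.02 and −0.14 to 0.01.

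**Figure D2:**
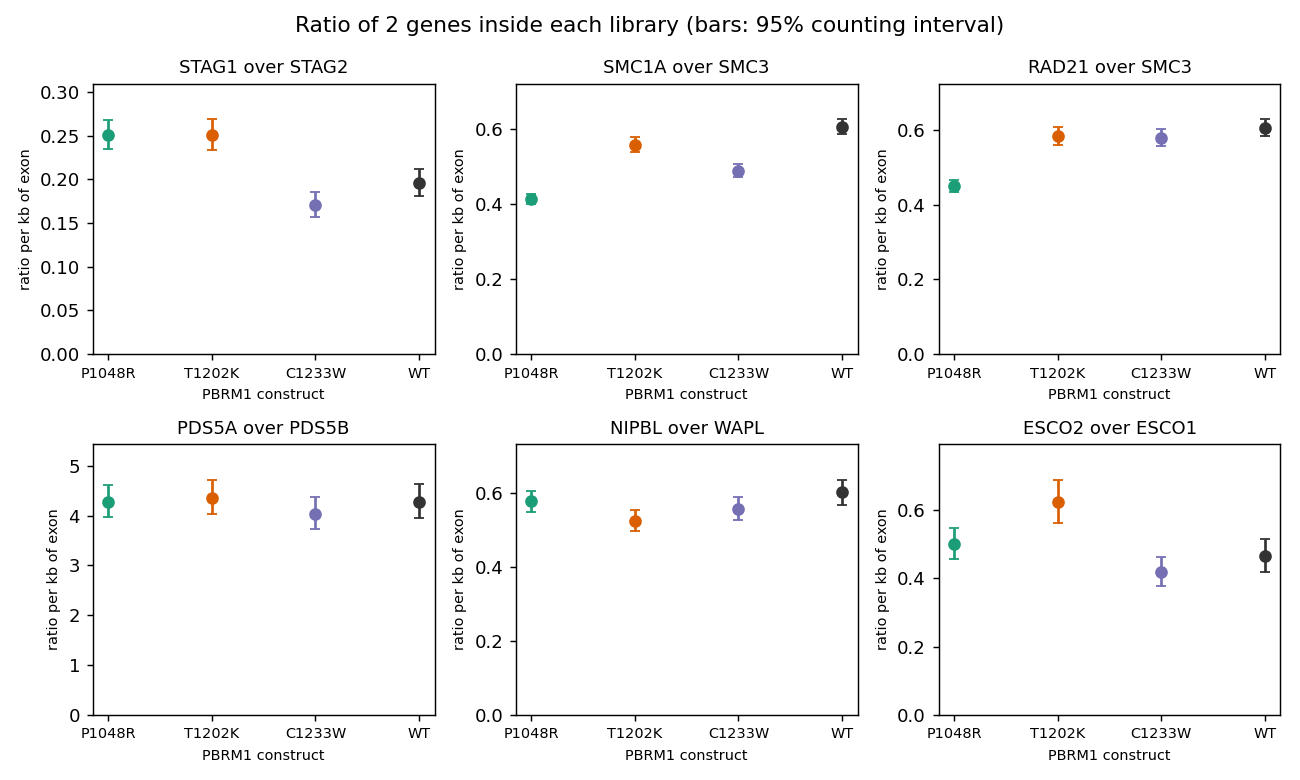
Ratio of the levels of 2 genes, per kilobase of exon, inside the P1048R, T1202K, C1233W and WT libraries, with bars for the 95% counting interval and each axis starting at 0. P1048R is lowest in SMC1A over SMC3 (0.412) and RAD21 over SMC3 (0.451), P1048R and T1202K lie above C1233W and WT in STAG1 over STAG2, and PDS5A over PDS5B is nearly flat.

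The promoters of SMC1A and SMC3, whose ratio was lowest in P1048R, and of STAG1, whose ratio to STAG2 differed between libraries, are shown as the 250 bases before the RefSeq start (GRCh38.p14). Capitals mark matches on either strand to GGGCGG (SP1), CCAAT (NF-Y) or TTTCCCGC and TTTGGCGC (E2F). The windows are chrX:53422729-53422978 on the minus strand for SMC1A (the upstream of its 2 RefSeq starts), chr10:110567445-110567694 on the plus strand for SMC3 and chr3:136752379-136752628 on the minus strand for STAG1.
SMC1A: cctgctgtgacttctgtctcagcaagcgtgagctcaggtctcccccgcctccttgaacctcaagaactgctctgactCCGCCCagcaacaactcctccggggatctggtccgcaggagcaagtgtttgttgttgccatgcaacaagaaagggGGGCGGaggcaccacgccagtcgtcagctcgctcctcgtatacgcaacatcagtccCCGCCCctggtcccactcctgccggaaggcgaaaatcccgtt
SMC3: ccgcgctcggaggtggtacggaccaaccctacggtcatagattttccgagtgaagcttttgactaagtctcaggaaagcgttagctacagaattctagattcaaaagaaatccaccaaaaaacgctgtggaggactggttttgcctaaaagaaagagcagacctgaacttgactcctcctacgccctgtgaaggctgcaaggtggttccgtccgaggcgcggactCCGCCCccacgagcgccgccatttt
STAG1: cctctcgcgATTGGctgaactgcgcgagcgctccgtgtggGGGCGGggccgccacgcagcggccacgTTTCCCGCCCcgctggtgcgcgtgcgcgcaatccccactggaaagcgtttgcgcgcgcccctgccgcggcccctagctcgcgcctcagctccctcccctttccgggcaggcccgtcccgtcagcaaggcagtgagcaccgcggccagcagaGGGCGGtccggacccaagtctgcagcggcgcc

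RefSeq windows were found for 8 of the 10 genes, 11 windows in all, the genes without one being RAD21 and ESCO2. STAG2 gave 3 of the windows and SMC1A 2, and those of SMC1A overlap, so the windows are not all independent. GGGCGG was in 11 of the 11 windows, against 42.6% of 35116 windows of the same length. CCAAT was in 6 of them, against 32.0% of all windows. TTTCCCGC was in 2 windows, those of STAG1 (where it overlaps a GGGCGG match) and of the downstream start of SMC1A, against 1.39% of all windows. TTTGGCGC was in a window of NIPBL and in a window of STAG2, against 0.55% of all windows. The palindromic NRF1 consensus was in 0 of the 11, against 1.03% of all windows. The matches are letters only, and binding was not measured. GGGCGG holds only G and C, and windows matched on GC content or gene expression were not compared.

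STAG1 and STAG2 are alternative subunits: STAG1 is known for cohesion at telomeres, and STAG2, often mutated in cancers, for cohesion at centromeres. STAG1 spans 136336233 to 136752403 of chromosome 3 (minus strand, ENSG00000118007), and STAG2 123960212 to 124422664 of chromosome X (plus strand, ENSG00000101972). Their coding sequences, 3777 and 3807 bp long, share no identical run over 21 bp. The most alike stretch of 90 bp lies within 1 exon of each gene, at chr3:136363378-136363467 (minus strand) and chrX:124077957-124078046 (plus strand). In it 78 bases are identical, and capitals mark the 12 that differ.
STAG1: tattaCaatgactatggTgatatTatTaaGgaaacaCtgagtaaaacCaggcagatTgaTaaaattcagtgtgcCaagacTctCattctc
STAG2: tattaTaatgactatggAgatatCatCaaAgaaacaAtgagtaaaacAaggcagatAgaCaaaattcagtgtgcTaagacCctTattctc

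With TMM scaling STAG1 was higher than WT in P1048R and lower than WT in C1233W. It stood at 93.0 CPM in P1048R (87.6 to 98.6), 85.5 in T1202K (80.2 to 91.0), 65.6 in C1233W (60.7 to 70.7) and 79.0 in WT (73.4 to 84.9). P1048R was above WT by 0.24 on the log2 scale (0.10 to 0.37), and T1202K did not differ from WT beyond counting error (0.11, −0.03 to 0.25). C1233W was the lowest library, at −0.27 against WT (−0.42 to −0.12), −0.50 against P1048R (−0.64 to −0.36) and −0.38 against T1202K (−0.53 to −0.24). On total counts the ratios against WT were 0.46 in P1048R, 0.29 in T1202K (0.15 to 0.43) and −0.14 in C1233W (−0.29 to 0.02), so that C1233W was no longer apart from WT beyond counting error. Under that scaling SMC3, STAG2 and NIPBL were each higher in P1048R and lower in T1202K than in WT, and for STAG1 C1233W against P1048R was at −0.60, past 1.5-fold. PCCB, on the opposite strand, overlaps the span of STAG1 and had 686 reads in P1048R, 665 in T1202K, 564 in C1233W and 503 in WT. Whether the exons of both genes overlap was not examined.

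STAG2 was the more abundant of the 2 paralogs throughout, at 387 CPM in P1048R (376 to 398), 355 in T1202K (344 to 366), 401 in C1233W (389 to 413) and 422 in WT (409 to 435). The log2 ratio against WT was −0.12 in P1048R, which turned to 0.10 on total counts, −0.25 in T1202K (−0.31 to −0.18), and −0.07 in C1233W, which turned to 0.06. STAG1 over STAG2, per kilobase of exon, was 0.251 in P1048R (0.235 to 0.268), 0.251 in T1202K (0.234 to 0.269), 0.171 in C1233W (0.157 to 0.185) and 0.195 in WT (0.181 to 0.211). P1048R and T1202K thus held the same ratio, 1.28 and 1.29 times that of WT, whereas C1233W held 0.873 times the WT ratio and 0.681 times that of P1048R.

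NIPBL and MAU2 together load cohesin. NIPBL spans 36876759 to 37066413 of chromosome 5 (plus strand, ENSG00000164190). It stood at 261 CPM in P1048R (252 to 270), 222 in T1202K (213 to 231), 238 in C1233W (228 to 247) and 268 in WT (257 to 278). T1202K was lowest, at −0.27 against WT (−0.35 to −0.19) and −0.23 against P1048R (−0.31 to −0.16). P1048R did not differ from WT beyond counting error (−0.04, −0.11 to 0.04; 0.19 on total counts), and C1233W was at −0.17 against WT (−0.25 to −0.09; −0.04 on total counts). MAU2 was less abundant and differed otherwise, at 57.8 CPM in P1048R, 59.6 in T1202K, 46.1 in C1233W and 47.2 in WT. NIPBL over MAU2, per kilobase, was 4.01 in P1048R, 3.31 in T1202K, 4.58 in C1233W and 5.04 in WT. In T1202K it differed from WT by −0.61 on the log2 scale (−0.80 to −0.42), or −0.36 with the trend on GC content and transcript length removed.

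WAPL, which releases cohesin from chromatin, had similar levels in the 4 libraries. It spans 86435256 to 86521815 of chromosome 10 (minus strand, ENSG00000062650), and stood at 260 CPM in P1048R (251 to 270), 243 in T1202K (234 to 252), 246 in C1233W (236 to 255) and 256 in WT (246 to 267). With TMM scaling no mutant differed from WT beyond counting error, with log2 ratios of 0.02 (−0.06 to 0.10), −0.08 (−0.15 to 0.00) and −0.06 (−0.14 to 0.02). On total counts they were 0.25 (0.17 to 0.32), 0.10 (0.02 to 0.18) and 0.07 (−0.01 to 0.15), so that P1048R and T1202K were higher than WT beyond counting error. NIPBL over WAPL, the loader over the releaser, was 0.578 per kilobase in P1048R, 0.526 in T1202K, 0.558 in C1233W and 0.602 in WT. The T1202K ratio differed from that of WT by −0.20 on the log2 scale (−0.31 to −0.08), and the difference was −0.06 (−0.17 to 0.05) for P1048R and −0.11 (−0.22 to 0.00) for C1233W.

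PDS5A and PDS5B bind the ring with WAPL, and also with sororin once SMC3 is acetylated. PDS5A spans 39822863 to 39977956 of chromosome 4 (minus strand, ENSG00000121892), and PDS5B 32586427 to 32778019 of chromosome 13 (plus strand, ENSG00000083642). Their coding sequences share no identical run over 20 bp. The most alike 90 bp within 1 exon of each, chr4:39862915-39863004 (minus strand) and chr13:32753401-32753490 (plus strand), are shown with the 15 differing bases in capitals.
PDS5A: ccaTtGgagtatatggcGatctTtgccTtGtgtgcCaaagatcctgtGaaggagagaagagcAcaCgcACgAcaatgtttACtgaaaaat
PDS5B: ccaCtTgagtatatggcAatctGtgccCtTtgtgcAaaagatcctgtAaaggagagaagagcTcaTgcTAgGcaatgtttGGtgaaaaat

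PDS5A was at 279 CPM in P1048R (270 to 289), 269 in T1202K (259 to 278), 279 in C1233W (269 to 290) and 329 in WT (317 to 340). PDS5B was at 70.7 CPM in P1048R (66.0 to 75.6), 66.7 in T1202K (62.0 to 71.6), 74.8 in C1233W (69.6 to 80.2) and 83.0 in WT (77.3 to 89.1). Both genes were highest in WT, and the mutants were within counting error of each other but for PDS5B, lower in T1202K than in C1233W. Against WT, PDS5A was at −0.24 in P1048R, −0.29 in T1202K and −0.23 in C1233W, and PDS5B at −0.23, −0.32 and −0.15. On total counts PDS5A was at −0.01, −0.11 and −0.10 and PDS5B at −0.01, −0.14 and −0.02. The balance of the paralogs was the most even of the ratios: PDS5A over PDS5B was 4.28 per kilobase in P1048R, 4.36 in T1202K, 4.04 in C1233W and 4.28 in WT, and its counting interval against WT included 0 in each mutant (the interval of C1233W was −0.24 to 0.08).

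ESCO2, the acetyltransferase of S phase, spans 27771949 to 27812640 of chromosome 8 (plus strand, ENSG00000171320). It stood at 66.6 CPM in P1048R (62.0 to 71.4), 63.9 in T1202K (59.4 to 68.8), 58.6 in C1233W (54.0 to 63.5) and 64.9 in WT (59.9 to 70.3). No mutant differed from WT beyond counting error under TMM scaling, while on total counts P1048R was higher by 0.26. ESCO1, which acetylates SMC3 also outside S phase, was at 88.1 CPM in P1048R, 68.0 in T1202K, 93.0 in C1233W and 92.7 in WT. T1202K was the library low in ESCO1, at −0.45 against WT (−0.59 to −0.30; −0.27 on total counts). ESCO2 over ESCO1 was therefore highest in T1202K, 0.624 per kilobase, against 0.501 in P1048R, 0.418 in C1233W and 0.465 in WT, and exceeded WT by 0.42 on the log2 scale (0.21 to 0.63). CCDC25 and PBK, on the opposite strand, overlap the span of ESCO2 and held 729 to 881 reads each. Whether their exons overlap those of ESCO2 was not examined, so it is uncertain whether part of the ESCO2 count is shared.

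Per kilobase of exon, SMC3 was the most abundant of the 10 transcripts in every library, at 141 CPM per kilobase in P1048R, 108 in T1202K, 124 in C1233W and 140 in WT. RAD21 (63.4, 63.4, 71.7 and 84.9) and SMC1A (57.9, 60.3, 60.4 and 84.6) followed, and then STAG2 (47.3, 43.4, 49.0 and 51.5) and WAPL (36.0, 33.6, 34.0 and 35.5). PDS5A lay at 22.0 to 26.9 CPM per kilobase, NIPBL at 17.7 to 21.4, STAG1 at 8.36 to 11.9, ESCO2 at 7.35 to 8.35 and PDS5B lowest, at 5.05 to 6.28. The exon length was that of all annotated exons joined, so a gene with long exons that these cells do not use is understated. Few reads could belong to copies of the genes: of the 50-base stretches of their transcripts, 7.93% in SMC3 also occur elsewhere, all in the pseudogene AC019097.1 (10 to 14 reads), and 0% to 3.87% in the other 9 genes.

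**Figure D3:**
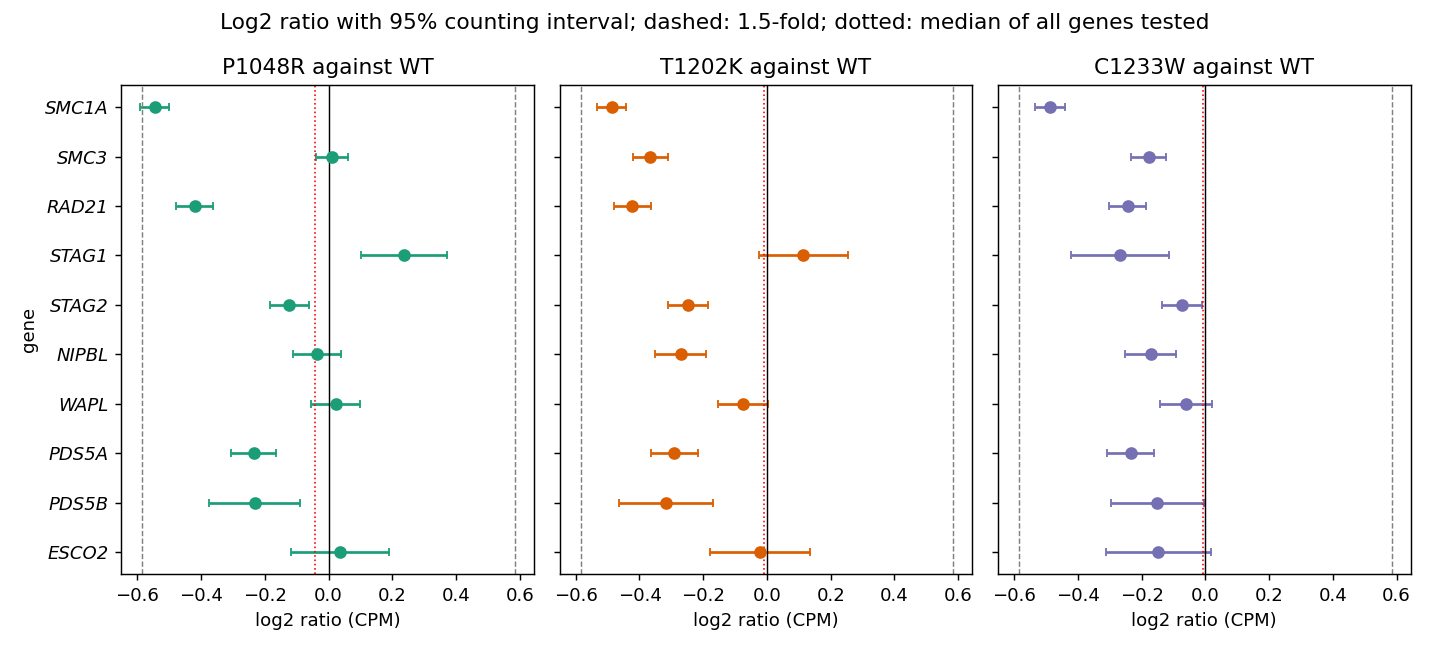
Log2 ratio of the level of each cohesin gene in P1048R, T1202K and C1233W against WT, with bars for the 95% counting interval, dashed lines at 1.5-fold and a dotted line at the median of all genes tested. SMC1A lies farthest to the left in each panel (−0.55, −0.49 and −0.49) without reaching the dashed line, and STAG1 is right of 0 in P1048R and T1202K and left of it in C1233W.

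Taking the 10 genes as a group, their median log2 ratio relative to that of all genes tested was −0.04 in P1048R, −0.27 in T1202K and −0.17 in C1233W against WT. It was −0.12 in T1202K against P1048R, −0.04 in C1233W against P1048R and 0.10 in C1233W against T1202K. Beyond counting error, 5 genes were lower and 1 (STAG1) higher in P1048R than in WT, beside 27.1% of all genes lower and 23.9% higher. In T1202K 7 were lower and 0 higher, beside 22.3% and 22.2% of all genes. In C1233W 8 were lower and 0 higher, beside 24.8% and 19.7%. Among genes of at least 50 CPM, a class that holds all 10 cohesin genes, the lower shares were 50.4%, 45.2% and 54.1%. The higher shares in that class were 24.7%, 22.5% and 15.5%, so its genes more often lay lower than WT in each mutant.

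The counts shift with the scaling: 3 genes (SMC1A, RAD21 and STAG1) kept their interval on the same side of 0 in P1048R against WT under TMM, total counts, DESeq2 size factors, TMM without PBRM1 and removal of the GC and length trend. In T1202K 6 genes did (SMC1A, SMC3, RAD21, STAG2, NIPBL and PDS5A), and in C1233W 3 (SMC1A, RAD21 and PDS5A). The cohesin transcripts are long and poor in G and C: the median GC content was 39.8%, against 48.0% for all genes tested, and the median transcript 6194 bp, against 3385 bp. With the trend on both removed, the group median in T1202K against WT was −0.16.

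Between mutants, T1202K was lower than P1048R beyond counting error in 4 genes (SMC3, STAG2, NIPBL and WAPL), beside 12% of all genes lower, and higher in 1 (SMC1A), beside 16.9% higher. C1233W was lower than P1048R in 5 (SMC3, STAG1, NIPBL, WAPL and ESCO2), beside 22.9%, and higher in 2 (SMC1A and RAD21), beside 19.5%. Against T1202K, C1233W was higher in 5 (SMC3, RAD21, STAG2, NIPBL and PDS5B), beside 16%, and lower in STAG1 alone of the 10, beside 23.4%. Among genes of at least 50 CPM the lower shares were 20.6%, 36.6% and 40.8% in these 3 comparisons, and the higher shares 33.1%, 25.03% and 19.3%. Across the same 5 scaling and trend settings, 2 of the 5 genes kept their side in T1202K against P1048R (SMC3 and NIPBL). In C1233W against P1048R 4 of 7 did (SMC3, STAG1, NIPBL and RAD21), and in C1233W against T1202K 4 of 6 (SMC3, RAD21, STAG2 and STAG1).

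Of 20 other regulators of cohesin, 3 were called lower at 1.5-fold in P1048R against WT, 1 in T1202K and 1 in C1233W, and 0 were called higher, beside 8.99%, 5.29% and 4.94% of all genes called lower and 10.7%, 7.96% and 8.77% called higher. CTCF, the zinc finger protein that stops cohesin at loop anchors, was at 82.6 CPM in P1048R, 88.9 in T1202K, 106 in C1233W and 137 in WT. WT was the highest library, and the log2 ratio was −0.73 in P1048R (−0.85 to −0.61), −0.62 in T1202K (−0.74 to −0.50), with −0.37 in C1233W (−0.49 to −0.25). Neither call held on total counts (−0.50 and −0.44), nor did that of T1202K with the GC and length trend removed (−0.57).

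DSCC1, part of the clamp loader that couples ESCO2 to replication forks, was at 46.9 CPM in P1048R, 63.1 in T1202K, 55.8 in C1233W and 91.2 in WT. It was called in P1048R (−0.96) and C1233W (−0.71; −0.58 and not called on total counts). TIMELESS, of the fork protection complex, was at 124 CPM in P1048R, 144 in T1202K, 155 in C1233W and 192 in WT. It was called in P1048R at −0.63, or −0.40 and not called on total counts. HDAC8, which removes the acetyl group from SMC3, was lower without reaching 1.5-fold, at 26.0 CPM in P1048R, 24.4 in T1202K, 24.96 in C1233W and 32.3 in WT. Its log2 ratios were −0.32, −0.41 and −0.37, against −0.09, −0.23 and −0.24 on total counts. CDCA5 (sororin), which protects cohesion from WAPL, was at 129 CPM in P1048R, 136 in T1202K, 115 in C1233W and 111 in WT, with log2 ratios of 0.21 (0.10 to 0.33), 0.30 (0.19 to 0.41) and 0.05 (−0.07 to 0.17), against 0.44, 0.47 and 0.18 on total counts.

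**Figure D4:**
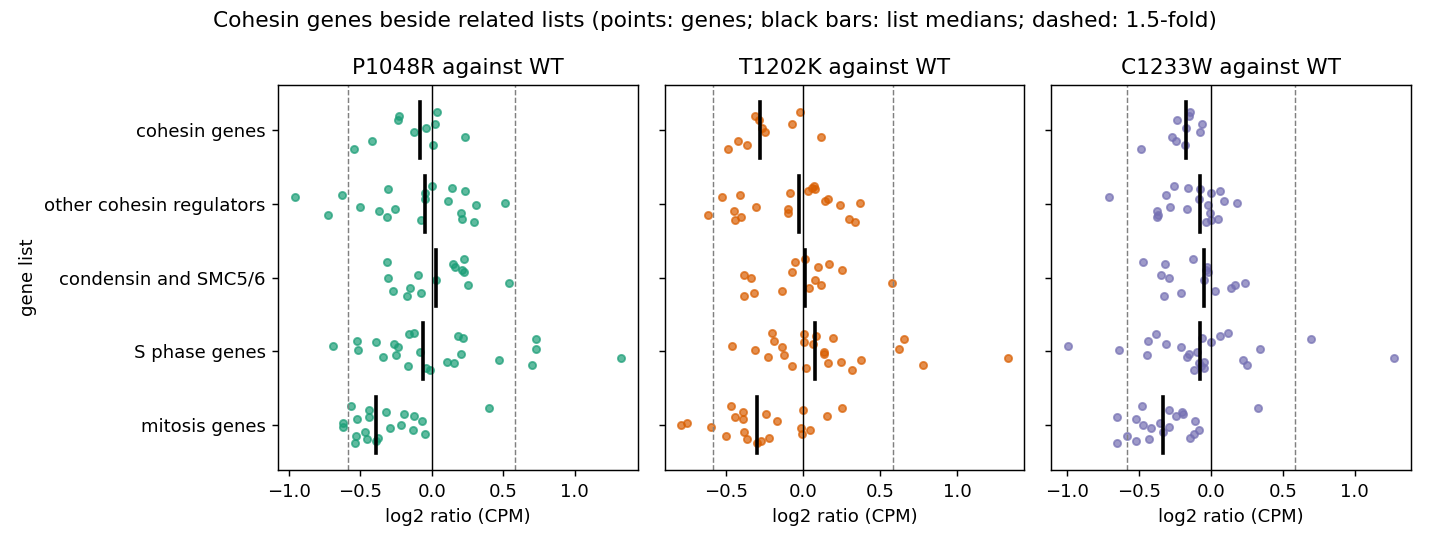
Log2 ratio of each gene in P1048R, T1202K and C1233W against WT (points), for the 10 cohesin genes and 4 related lists, with black bars for list medians and dashed lines at 1.5-fold. The mitosis list has the lowest median in each mutant (−0.39, −0.30 and −0.33), and no cohesin gene reaches a dashed line.

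The counts of related lists stand beside the same shares of all genes, 8.99%, 5.29% and 4.94% called lower and 10.7%, 7.96% and 8.77% called higher in P1048R, T1202K and C1233W against WT. Of 15 condensin and SMC5/6 genes, 0 were called at 1.5-fold in either direction in any mutant against WT, and their median relative to all genes was 0.07 in P1048R, 0.02 in T1202K and −0.04 in C1233W. Of 21 mitosis genes, 2, 3 and 2 were called lower and 0 higher in the same order, with relative medians of −0.34, −0.29 and −0.32, and 2 of 21 in P1048R is close to the share of all genes. Nearly all of the mitosis genes had at least 50 CPM in every library, a class that more often lay lower than WT in each mutant. The list medians were not set against that class. CENPF, a kinetochore protein, was at 316 CPM in P1048R, 289 in T1202K, 380 in C1233W and 486 in WT, and TOP2A, which untangles sister DNA, at 909, 922, 1140 and 1396 CPM. Their calls, and those of CCNB1 and KIF23 in C1233W, were lost on total counts, whereas that of CENPE in T1202K (−0.79; −0.62) held. Of 24 S phase genes, 4, 4 and 2 were called higher and 1, 0 and 2 lower, with relative medians of −0.02, 0.08 and −0.07. Called higher were CDT1 in each mutant, E2F1 in each mutant (below 1.5-fold once the GC and length trend was taken out) and MCM5 and ORC1 in P1048R and T1202K. Called lower were RRM2 in P1048R (−0.69; not on total counts) and C1233W (−0.99), and GINS4 in C1233W (−0.64; not on total counts).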

How the data were processed

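RNA was measured by sequencing in 1 library per construct. Whole-number read counts per gene were deposited, 1 column per library, without normalization; the submitters' processing notes name Trim Galore, HISAT2, featureCounts and hg38, without versions. How strand and multiply aligned reads were handled, and which annotation was counted, is not given in these sources. The library kit was stranded, per the labels' protocols. All 58735 gene identifiers were found in GENCODE release 29 (GRCh38), which gave coordinates, exon lengths and GC content; promoter windows came from RefSeq (GRCh38.p14).

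Library sizes were scaled by TMM in edgeR 4.0.16 under R 4.3.3. The 16262 genes that reached 1 CPM in any library entered the comparisons, after adding 0.5 to each count, with Clopper-Pearson 95% intervals for ratios, exact Poisson intervals for levels and normal intervals on the log scale for ratios inside a library. These cover counting error only, and may be too narrow even for that, since PCR copies are not independent molecules. A floor of 3 reads corresponded to 0.251 CPM in P1048R, 0.265 in T1202K, 0.290 in C1233W and 0.321 in WT. The size rule was tested on simulated data. With 1 library per construct there is no test across libraries.

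The members and gene lists were chosen with earlier results of these data known. All 10 cohesin genes are named, as are MAU2, ESCO1, CDCA5, HDAC8 and CTCF, and of the other cohesin regulators, condensin, SMC5/6, S phase, mitosis and meiotic cohesin genes those past 1.5-fold in any comparison. Marker genes are given as sums, apart from KRT10 and genes with few or no reads. The 8 alternatives were total counts, DESeq2 1.42.0 size factors, TMM without PBRM1, no filter, a minimum of 5 CPM, removal of a smooth trend on GC content and transcript length (mgcv), thinned counts and a pseudocount of 5.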

Additional observations from a re-analysis of the deposited data

How the results depend on the processing

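No paired analysis was possible because each construct had 1 library, and for the same reason no library could be left out. Under the 8 alternatives the count of cohesin genes past 1.5-fold or 2-fold was 0 in every comparison, except that on total counts 1 gene, STAG1, was past 1.5-fold in C1233W against P1048R. The no-filter and 5 CPM settings could not change this count, since they alter only which genes are compared. The group median relative to all genes stayed within 0.1 of its value except in T1202K against WT, where it was −0.16 with the GC and length trend removed, against −0.27. That group median does not depend on library scaling, but single ratios do: total counts moved the median of all genes to 0.18 in P1048R, 0.17 in T1202K and 0.12 in C1233W against WT. On total counts the genes called at 1.5-fold split into 3040 higher and 578 lower in P1048R against WT (1735 and 1462 with TMM), 2327 and 432 in T1202K (1295 and 861) and 2081 and 398 in C1233W (1426 and 803). Between mutants the split was 226 and 342 in T1202K against P1048R (275 and 270) and 937 and 924 in C1233W against P1048R (1240 and 547). At 2-fold the splits on total counts were 1250 and 236 (728 and 491), 799 and 227 (479 and 359) and 942 and 129 (681 and 197) for P1048R, T1202K and C1233W against WT. A minimum of 5 CPM kept 12193 of the 16262 genes in the comparisons. It left 286 genes past 1.5-fold in T1202K against P1048R (545), 1135 in C1233W against P1048R (1787) and 852 in C1233W against T1202K (1442). It left 603, 359 and 330 past 2-fold in P1048R, T1202K and C1233W against WT (1219, 838 and 878), and 17, 201 and 124 in T1202K against P1048R, C1233W against P1048R and C1233W against T1202K (201, 738 and 575). A pseudocount of 5 left 122 of 201 genes past 2-fold in T1202K against P1048R.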

Other observations

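Cohesin subunits known from meiosis had low counts. REC8, the meiotic kleisin, stood at 2.43 CPM in P1048R, 2.38 in T1202K, 1.74 in C1233W and 4.07 in WT, so WT was highest. Its log2 ratio was −0.74 in P1048R (−1.49 to −0.01), −0.76 in T1202K (−1.54 to −0.02), with −1.20 in C1233W (−2.12 to −0.38). The P1048R and T1202K values were no longer called at 1.5-fold on total counts, with DESeq2 size factors or with thinned counts. STAG3, a cohesin subunit of meiosis, stood at 4.44 CPM in P1048R, 2.91 in T1202K, 5.997 in C1233W and 4.28 in WT. It was called in C1233W against T1202K, at a log2 ratio of 1.03 (0.41 to 1.70), from 62 and 33 reads. The ratio stayed past 1.5-fold under the alternatives that can change it, at 0.95 with a pseudocount of 5. The no-filter and 5 CPM settings leave the ratio of a single gene as it was, and STAG3 reached 5 CPM only in C1233W. Reads that could belong to related genes were not examined for STAG3. Of the 7 genes of the meiotic list, 3 (REC8, STAG3 and SGO1) reached 1 CPM in any library, and MEIKIN had 0 reads in all 4.

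Over the 4 libraries, the mean profile of the 10 cohesin genes, as log2 CPM centred on each gene's mean, was 0.01 in P1048R, −0.10 in T1202K, −0.06 in C1233W and 0.14 in WT. Of 7787 other genes with at least 20 CPM in every library, the 5 nearest to it by Euclidean distance were CKAP2 (0.0166), BROX (0.0229), RPE (0.0261), KIF13A (0.0263) and SMARCC2 (0.0282). The profile is a mean that single cohesin genes depart from, with SMC1A lowest in P1048R and STAG1 lowest in C1233W. Among 7787 genes and only 4 libraries, some genes will lie near any such profile. A link of these 5 genes to cohesin was not tested.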
